A study of Homo sapiens with 5 samples.

Results

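The genes described here are the nuclear genes of oxidative phosphorylation, grouped by the complex their products belong to. They were chosen by name and by level: 264 gene names in the deposited table start with NDUF, UQCR, COX or ATP5 or are SDHA, SDHB, SDHC, SDHD or CYC1. Removing 152 pseudogene names left 112, and 105 of these had a mean of at least 1 TPM (transcripts scaled to a fixed total, a level that is corrected for the length of the transcript) over the 5 libraries. They are 105 of the 17049 genes that reach that mean, out of 58174 listed. That mean is over both groups, so a gene high in 1 group alone can reach it: 104 of the 105 had a mean of at least 1 TPM in each group, and COX6B2 reached the limit through the hairpin libraries. All 105 had a value above 0 in every library. By role they comprise 81 subunits, 19 assembly factors and 5 antisense or read-through transcripts. Counted as assembly factors are 9 genes of complex I, 9 of complex IV and, for complex V, ATP5S, known as coupling factor B. The subunits are 37 of complex I, 4 of complex II, 10 of complex III, 15 of complex IV and 15 of complex V. Against the start of their names, NDUFA4 and NDUFA4L2 are counted with complex IV, and ATP5SL with the assembly factors of complex I.

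Oxidative phosphorylation takes place in the inner mitochondrial membrane. Complexes I and II pass electrons from NADH and succinate to ubiquinone, complex III passes them to cytochrome c, and complex IV hands them to oxygen. The proton gradient that builds up drives complex V, the ATP synthase. All but complex II combine nuclear subunits with subunits encoded in mitochondrial DNA. Every complex needs assembly factors that join its parts, and in complexes I to IV assembly factors also insert metal centres.

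RNA was sequenced from Ishikawa cells, a long-established line of human endometrial carcinoma, after lentiviral infection and selection with puromycin at 2.5 µg/ml from 72 h onwards. The 3 libraries called sh-LINC00958 carried a short hairpin RNA against the long non-coding RNA LINC00958, and the 2 libraries called sh-NC carried the negative control. The comparison asked how transcript levels differ when LINC00958 is silenced. Whether replicate libraries stand for separate cultures is not stated, so p-values cover the spread among these 5 libraries alone, and that spread may be technical.

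LINC00958 itself measured 67.2, 67.1 and 58.4 TPM with the hairpin against 119 and 137 TPM in sh-NC, a log2 fold change of -0.99 (limma adjusted p = 0.0119). All 6 epithelial and endometrial markers were present, with EPCAM between 399.6 and 503.6 TPM, PAX8 between 696 and 823 TPM and SOX17 between 55.6 and 73.7 TPM. Of the markers of other cells, CD3E was listed at 0 throughout, PTPRC, LUM and COL1A2 stayed at or below 0.579 TPM, and PECAM1, CDH5 and COL1A1 lay between 1.304 and 5.23 TPM. KRT18, a keratin, rose by 0.44 (limma adjusted p = 0.0211). KRT8 was above both controls in every hairpin library, EPCAM, PAX8 and SOX17 were below both, CDH1 overlapped, and none of these passed. With the trend of GC content and transcript length removed, KRT18 passed as higher (limma adjusted p = 0.0493). PAX8 and SOX17 passed there as lower (limma adjusted p = 0.0329 and 0.0484). The part of these markers in the results below was not tested. Each library had from 27896 to 29411 genes with a nonzero value. TPM carries no read total, so the depth is unknown and no counting interval can be given. In a population of cells, fewer cells of a type and less RNA per cell cannot be told apart.

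Fold changes below are log2 differences of TPM + 1 between sh-LINC00958 and sh-NC, fitted with limma over all 17049 genes, with p-values adjusted over all of them and a threshold of 0.05. The members as a group stayed close to the control level. Their fold changes ran from -0.72 to 1.66 with a median of 0.09, against a median of 0.00 over all genes tested, and 62 of 105 lay within 0.25 of 0. Of the 105 members 5 rose, NDUFA8, NDUFS8, COX15 and ATP5I among them. That is 4.76% of them, beside 4.12% of all genes tested. NDUFV2 alone fell, which is 0.952% of members beside 5.68% of all genes. The share that rose is near the background and is no result about these genes. At an unadjusted p under 0.05 in the limma fit, 24 members were higher and 10 lower, beside 2446 and 2784 of the 17049 genes tested. The unadjusted counts of smaller sets below are to be read beside those.

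A count by overlap gave a different picture from the count of calls. In 41 members every sh-LINC00958 library was above both sh-NC libraries, which is 39.0% of members beside 24.4% of all genes tested. Without COX6B2 it is 40 of 104. In 17 members every library was below, 16.2% beside 25.5%. Members varied less within groups, with a median SD on the log2 scale of 0.111 against 0.154 for all genes tested. Their median level was 143 TPM against 15.9 TPM. The part of either in the shares without overlap, here and below, was not tested. The fold changes of members moved with the GC content of their transcripts (Spearman's rho 0.49). With the trend of GC and length removed the median fold change of members was 0.06 in place of 0.09.

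Single libraries set how many genes passed. Library 2 of sh-LINC00958 lay nearest the controls: the median deviation of members from the control mean was 0.03 there on the log2 scale, and 0.14 and 0.10 in libraries 1 and 3. Without it limma called 16 members higher and 5 lower, which is 15.2% and 4.76%, beside 5.30% and 8.72% of all genes tested. Without sh-LINC00958 replicate 3 or sh-NC replicate 2 it called 1 and 0, and without sh-LINC00958 replicate 1 or sh-NC replicate 1 it called 0 and 0 (13 and 8, and 17 and 10, at an unadjusted p under 0.05). The calls over all genes moved too, from 702 higher and 969 lower to 904 and 1486 without replicate 2 of sh-LINC00958. They moved to 36 higher and 51 lower without replicate 1 of sh-LINC00958, and to 112 and 145 without its replicate 3. The calls of single genes given here, of members and of others, are to be read with that range.

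**Figure D1:**
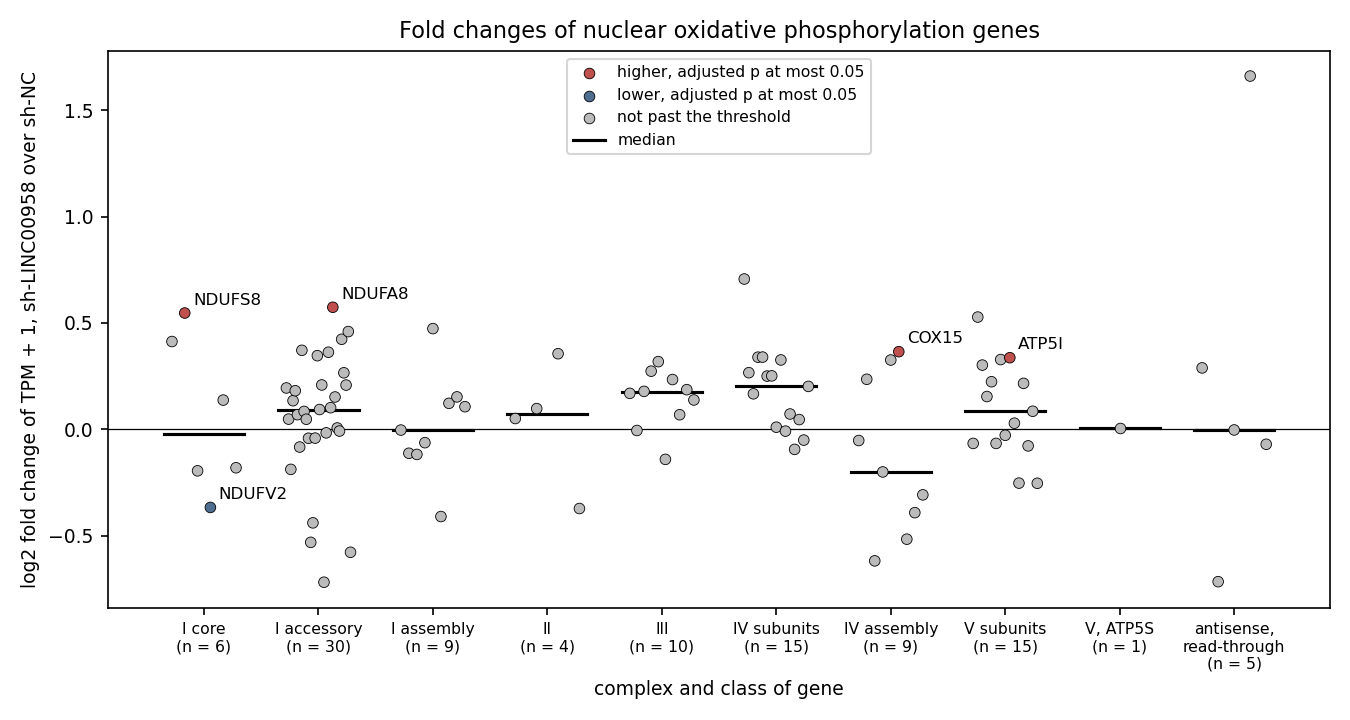
Each point is 1 of 104 members, placed by complex and class; the vertical axis is the fitted log2 fold change of TPM + 1 in sh-LINC00958 (3 libraries) over sh-NC (2 libraries), the bar is the median of the points drawn, and colour marks genes past an adjusted p of 0.05. Subunits of complexes III and IV have medians of 0.17 and 0.20, the assembly factors of complex IV a median of -0.20, and the point at 1.66 is a read-through transcript.

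The region before the transcription start of these genes is a textbook example of shared control: many carry sites for NRF1, for the ETS factor GABP and for YY1. RefSeq promoter windows (GRCh38.p14) were matched by symbol for 85 of the 105 members, and the 250 bases before each start were searched on both strands. The NRF1 core GCGCATGC was present in 14 windows, 16.5% of members, against 2.81% of all 27305 promoters and 4.74% of those of 10939 genes tested here. The ETS core CCGGAAG was present in 23.5% of members, 8.82% of all promoters and 16.1% of those of tested genes. The YY1 core AAGATGGC was rarer, at 3.53%, 1.37% and 1.91%. The GC box GGGCGG ran the other way against tested genes, with 52.9% of members and 67.1% of tested genes (42.3% of all promoters). The letters of these motifs do not contain each other, a match on both strands counts once, and genes transcribed in opposite directions can share a window.

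The windows of 4 members that passed the test are shown to compare the one that fell with others that rose. Each runs 5′ to 3′ on the gene's own strand and ends just before the first annotated start in RefSeq or GENCODE, and capitals mark a match to a motif named above. NDUFA8 has a GC box on its own strand and NDUFV2 has 3 on the opposite strand, written there as CCGCCC. COX15 has an ETS core directly before its RefSeq start, and ATP5I, listed by RefSeq as ATP5ME, has an NRF1 core.
NDUFA8 (chr9:122159820-122160029, minus strand): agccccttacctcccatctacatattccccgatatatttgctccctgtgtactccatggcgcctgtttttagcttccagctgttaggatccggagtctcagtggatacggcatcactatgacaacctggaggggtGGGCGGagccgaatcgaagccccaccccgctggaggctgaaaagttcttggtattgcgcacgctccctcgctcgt
NDUFV2 (chr18:9102449-9102629, plus strand): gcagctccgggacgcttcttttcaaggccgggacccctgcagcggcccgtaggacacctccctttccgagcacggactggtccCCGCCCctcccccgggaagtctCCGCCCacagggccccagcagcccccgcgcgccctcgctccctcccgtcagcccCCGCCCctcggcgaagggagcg
COX15 (chr10:99732128-99732377, minus strand): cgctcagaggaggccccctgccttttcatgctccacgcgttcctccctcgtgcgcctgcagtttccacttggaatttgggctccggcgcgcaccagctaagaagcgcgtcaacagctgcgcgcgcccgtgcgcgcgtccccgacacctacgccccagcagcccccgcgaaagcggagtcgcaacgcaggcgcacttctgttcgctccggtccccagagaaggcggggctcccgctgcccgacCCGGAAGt
ATP5I (chr4:674339-674526, minus strand): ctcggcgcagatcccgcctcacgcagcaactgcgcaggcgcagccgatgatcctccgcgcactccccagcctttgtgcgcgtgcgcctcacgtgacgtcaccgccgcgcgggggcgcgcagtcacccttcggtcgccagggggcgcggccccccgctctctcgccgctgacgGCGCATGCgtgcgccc

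Fold changes of members with and without each motif are given as medians, and no difference between them was tested. Members with an NRF1 core had a median log2 fold change of 0.04 (n = 14) and those without it 0.11 (n = 71). For the ETS core the medians were 0.15 (n = 20) and 0.08 (n = 65), for the YY1 core -0.07 (n = 3) and 0.11 (n = 82), and for the GC box 0.08 (n = 45) and 0.11 (n = 40). Of the 5 matched members that passed, ATP5I was the only one with an NRF1 core and COX15 the only one with an ETS core. The window of NDUFS8 held none of the 4 motifs, which says only that these letters are not in it.

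Complex I, the NADH dehydrogenase, held 4 of the 6 genes that passed, and 37 of the 81 subunits. Of these 37, 8.11% rose and 2.70% fell, beside 4.12% and 5.68% of all genes tested. The core of complex I has a part that oxidises NADH, with NDUFV1, NDUFV2 and NDUFS1. Another part carries electrons on to ubiquinone, with NDUFS3, NDUFS7 and NDUFS8 among its subunits. NDUFS8, which holds iron-sulfur clusters on the way to ubiquinone, measured 215, 171 and 206 TPM against 127 and 141 TPM. All 3 hairpin libraries were above both controls, library 2 the least. NDUFS8 rose by 0.55 (SE 0.120, limma adjusted p = 0.0449). In the same part, NDUFS3 had a log2 fold change of 0.14 and NDUFS7 of -0.20 and neither passed (limma adjusted p = 0.320 and 0.326).

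NDUFV2, an iron-sulfur subunit of the NADH-oxidising part, measured 232, 210.4 and 213 TPM in sh-LINC00958 and 288 and 276 TPM in sh-NC. Every hairpin library was below both controls. NDUFV2 fell by 0.37 on the log2 scale (SE 0.0760, 95% interval -0.55 to -0.18, limma adjusted p = 0.0400). Its partner NDUFV1, which binds NADH and the flavin, measured 201, 192 and 206 TPM against 133 and 169 TPM, above both controls in every hairpin library but short of the threshold (log2 fold change 0.41, limma adjusted p = 0.0735). Set against each other, a pair picked after the values were seen, the ratio of NDUFV1 to NDUFV2 was 0.865, 0.915 and 0.967 with the hairpin and 0.462 and 0.611 in the controls. NDUFS1, the largest iron-sulfur subunit, shows how far the controls can differ, at 46.4 and 103 TPM, on either side of the 61.4, 64.3 and 57.8 TPM of the hairpin libraries.

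Among the 30 accessory subunits of complex I, 1 rose, which is 3.33% beside 4.12% of all genes tested. NDUFA8, an accessory subunit on the intermembrane side with paired cysteine motifs, measured 197, 189.7 and 185 TPM against 127 and 129 TPM. The groups were tight and did not overlap. NDUFA8 rose by 0.57 (SE 0.0690, 95% interval 0.40 to 0.74, limma adjusted p = 0.0143), and it is the member called under most of the other settings, 11 of 16.

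The remaining 29 accessory subunits did not pass, and those nearest the threshold went both ways. NDUFS6, a zinc-binding subunit, had a log2 fold change of 0.36 and NDUFB7 of 0.37 (limma adjusted p = 0.0518 and 0.0616), each without overlap of the groups. NDUFC2 of the membrane arm had -0.44 (limma adjusted p = 0.0607). NDUFA5, NDUFB4 and NDUFB5 had the lowest values, -0.53, -0.58 and -0.72, with all hairpin libraries below both controls. With the GC and length trend removed these were -0.06, -0.49 and -0.42, and NDUFS6 and NDUFB7 had 0.19 and 0.15. NDUFS5, the most abundant subunit of the complex, measured 579, 529 and 559 TPM against 528 and 513 TPM (log2 fold change 0.09, limma adjusted p = 0.412). NDUFAB1, the acyl carrier protein, was as level, with a log2 fold change of 0.05 (95% interval -0.12 to 0.21).

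None of the 9 assembly factors of complex I passed in the limma fit, and 1, NDUFAF4, had an unadjusted p under 0.05. NDUFAF3 and NDUFAF4 work together in building the ubiquinone part. NDUFAF4 measured 37.5, 41.0 and 34.9 TPM against 52.3 and 48.7 TPM (log2 fold change -0.41, limma adjusted p = 0.0586). NDUFAF3 measured 69.8, 43.0 and 52.2 TPM against 35.2 and 42.2 TPM (log2 fold change 0.47, limma adjusted p = 0.188). Their groups did not overlap, in opposite directions, and the other 7 lay between -0.12 and 0.15. With the GC and length trend removed NDUFAF4 was at -0.03 and NDUFAF3 at 0.28.

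**Figure D2:**
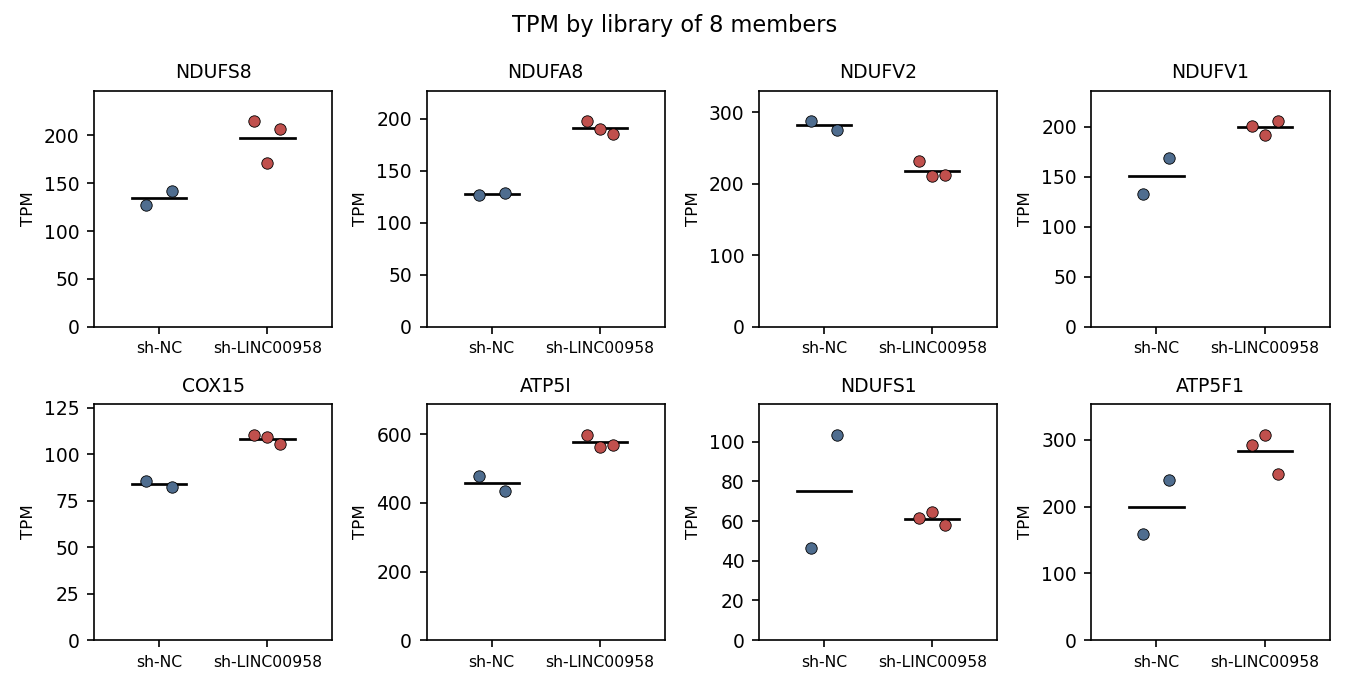
TPM of 8 genes in each library, with the group mean as a bar; the vertical axes start at 0 and differ in range. The groups of NDUFS8, NDUFA8, NDUFV2, COX15 and ATP5I, which passed the threshold, do not overlap; the controls of NDUFS1 lie on both sides of its hairpin libraries.

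Complex II, succinate dehydrogenase, had no member past the threshold in the limma fit, with 1 higher and 1 lower at an unadjusted p under 0.05. SDHB, the iron-sulfur subunit, measured 267, 226 and 239 TPM against 193 and 187 TPM, and SDHD, a membrane anchor, 209, 262 and 208 TPM against 317 and 268 TPM. The groups did not overlap for either, and the log2 fold changes were 0.36 and -0.37 (limma adjusted p = 0.0631 and 0.128). The flavoprotein SDHA and the other anchor, SDHC, had 0.05 and 0.10 with overlapping groups. The summed level of the 4 genes was accordingly flat, at 673, 706 and 637 TPM against 695 and 656 TPM.

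Complex III, cytochrome bc1, had small differences, mostly in 1 direction. The fold changes of 8 of its 10 members were above 0, and in 6 every hairpin library was above both controls (60.0%, beside 24.4% of all genes tested), yet none passed in the limma fit and 1 had an unadjusted p under 0.05. That was UQCR11, a small subunit, at 200.1, 173 and 202 TPM against 152 and 154 TPM (log2 fold change 0.32, limma adjusted p = 0.0826). The small subunit UQCR10 had 0.23 and the hinge protein UQCRH, the most abundant of the complex, 0.17 (limma adjusted p = 0.179 and 0.248). The catalytic subunits did not stand out, with 0.19 for the haem protein CYC1 and -0.01 for the Rieske iron-sulfur protein UQCRFS1. UQCRB, which lies near the ubiquinone site, was below both controls in every hairpin library (log2 fold change -0.14, limma adjusted p = 0.3001), and its fold change was 0.22 with the GC and length trend removed.

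Complex IV, cytochrome c oxidase, is built around subunits encoded in mitochondrial DNA, which its nuclear subunits surround and regulate. The 15 genes counted here as nuclear subunits include alternative forms, such as COX6B2 and COX7B2, and relatives of subunits, such as NDUFA4L2. The fold changes of 12 of the 15 were above 0, 7 of them without overlap (46.7%, beside 24.4% of all genes tested), and their median was 0.20. None passed in the limma fit, and 6 were higher and 0 lower at an unadjusted p under 0.05, beside 2446 and 2784 of all 17049 genes. Without COX6B2, a choice made after seeing the data, 11 of 14 were above 0, 6 without overlap and 5 at an unadjusted p under 0.05 in the limma fit, with a median of 0.18. COX6A1 and COX8A were the most abundant. COX8A measured 895, 777 and 868 TPM against 725 and 745 TPM (log2 fold change 0.20, limma adjusted p = 0.163), and COX6A1 averaged 1047 ± 50.9 (SD, n = 3) against 996 ± 42.9 TPM (SD, n = 2), with overlapping groups. COX6B1 and COX7A2 had 0.34 and 0.25 (limma adjusted p = 0.1014 and 0.1002).

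Several complex IV subunits have alternative forms, and the transcripts of subunits 4, 6A, 6B and 7A were mostly of the widely expressed ones. COX4I1 and COX6A1 accounted for all of their summed TPM, because COX4I2 and COX6A2, the forms of lung and of heart and muscle, were listed at 0 in every library. COX7A2 made up 72.3% ± 1.93 (SD, n = 3) of the 7A family with the hairpin and 72.5% ± 4.53 (SD, n = 2) without it. COX7A1, the heart and muscle form, stayed under 0.1% in each library. COX6B2, known from testis, took 0.257% ± 0.0708 (SD, n = 3) of 6B against 0.111% ± 0.0857 (SD, n = 2). Over 8 shares tested, the smallest exact two-sided permutation p after adjustment was 0.400.

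COX7B2 stood out among such forms, and it was picked after the values were seen. The gene is known chiefly from testis, yet it measured 66.1, 59.7 and 59.7 TPM with the hairpin and 52.1 and 46.2 TPM in sh-NC. It made up 24.3%, 24.9% and 22.6% of the sum of COX7B and COX7B2 in sh-LINC00958, and 21.3% and 19.7% in sh-NC. All 3 hairpin libraries were above both controls, and the log2 fold change was 0.33 (limma adjusted p = 0.0867).

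The 9 assembly factors of complex IV spread more widely than its subunits, with 3 fold changes above 0 and 6 below, and a median of -0.20. COX15, the enzyme that makes haem A for this complex, measured 110.4, 109 and 106 TPM against 85.5 and 82.3 TPM. The groups were tight and did not overlap, and COX15 rose by 0.36 (SE 0.0717, 95% interval 0.19 to 0.54, limma adjusted p = 0.0363). COX10, which makes the haem O that COX15 uses, had a log2 fold change of -0.05 with overlapping groups.

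The copper carriers of complex IV went both ways. COX17, which delivers copper in the intermembrane space, had a log2 fold change of 0.33 (126, 123 and 120.2 TPM against 103 and 93.0 TPM, limma adjusted p = 0.0586). COX11, which passes copper on to a mitochondrially encoded subunit, had -0.39 and COX19 -0.31 (limma adjusted p = 0.127 and 0.173). COX18 and COX20, which handle the newly made COX2 protein, had the lowest values of the class, -0.62 and -0.52, with limma adjusted p = 0.228 and 0.166. COX20 measured 26.8 and 43.7 TPM in the controls, and it shares 3502 exon bases with HNRNPU on the other strand.

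Complex V, ATP synthase, had 1 gene past the threshold among 15 subunits, 6.67% beside 4.12% of all genes tested. In 8 of the 15 every hairpin library was above both controls, 53.3% beside 24.4% of all genes tested. In 2 every hairpin library was below both controls, 13.3% beside 25.5%. ATP5I encodes subunit e of the membrane part, which helps ATP synthases pair up, and measured 598, 562 and 569 TPM against 478 and 435 TPM. Every hairpin library was above both controls, and ATP5I rose by 0.34 (SE 0.0736, 95% interval 0.16 to 0.52, limma adjusted p = 0.0447). The neighbouring subunits f (ATP5J2) and g (ATP5L) had 0.33 and 0.15 without overlap of the groups (limma adjusted p = 0.137 and 0.192).

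In the catalytic head of the enzyme, the alpha and beta subunits were among the most abundant members and nearly level. ATP5B averaged 999 ± 133 (SD, n = 3) against 1051 ± 102 TPM (SD, n = 2), or -0.08 on the log2 scale, and ATP5A1 had -0.03 (95% interval -0.20 to 0.15). The shaft subunit gamma, ATP5C1, measured 407, 388 and 376 TPM against 453 and 478 TPM, below both controls in every hairpin library (log2 fold change -0.25, limma adjusted p = 0.0753). Of the outer stalk, ATP5F1, subunit b, measured 292, 307 and 248 TPM against 158 and 239.5 TPM, above both controls, 1 of which was much lower than the other (log2 fold change 0.53, limma adjusted p = 0.128). ATP5O, which joins stalk and head, had -0.25, and ATP5H and ATP5J each had -0.07.

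The c ring of ATP synthase draws on 3 genes for 1 mature protein. ATP5G1 and ATP5G2 supplied nearly equal shares, 46.3% ± 1.98 and 45.6% ± 2.21 (SD, n = 3) with the hairpin and 44.5% ± 2.39 and 46.2% ± 1.63 (SD, n = 2) without it. ATP5G3 supplied 8.07% ± 0.519 (SD, n = 3) and 9.36% ± 0.760 (SD, n = 2). By level, ATP5G1 had a log2 fold change of 0.30, ATP5G2 of 0.22 and ATP5G3 of 0.03 (limma adjusted p = 0.106, 0.293 and 0.862).

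Summed over subunits, complexes I, III and IV were higher in every hairpin library than in both controls, and complexes II and V overlapped. Complex I summed to 6270.3, 5718 and 5950.3 TPM against 5432 and 5619 TPM. Complex III summed to 2437, 2129 and 2389.8 TPM against 2054 and 2070.0 TPM, and complex IV to 5085, 4576 and 4942 TPM against 4479 and 4505 TPM. In each, library 2 of sh-LINC00958 was close to the controls. The exact two-sided permutation test gave p = 0.2 for complexes I, III and IV (0.333 adjusted over 5 complexes), 0.4 for complex V and 0.9 for complex II, where 0.1 is the smallest that 3 libraries against 2 allow.

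Complex V summed to 6503, 5788 and 5971 TPM against 5839 and 5704 TPM. All 81 nuclear subunits together summed to 20968, 18917 and 19889 TPM against 18499 and 18555 TPM, a log2 ratio of means of 0.10. The 13 mitochondrially encoded subunits of the same complexes summed to 100532, 116688 and 109198 TPM against 120761 and 108927 TPM, with overlapping groups, and none of them passed in the limma fit (0 higher and 1 lower at an unadjusted p under 0.05). MT-ND2 and MT-CO1 had the smallest p, with log2 fold changes of -0.32 and -0.17 (limma adjusted p = 0.156 and 0.175).

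**Figure D3:**
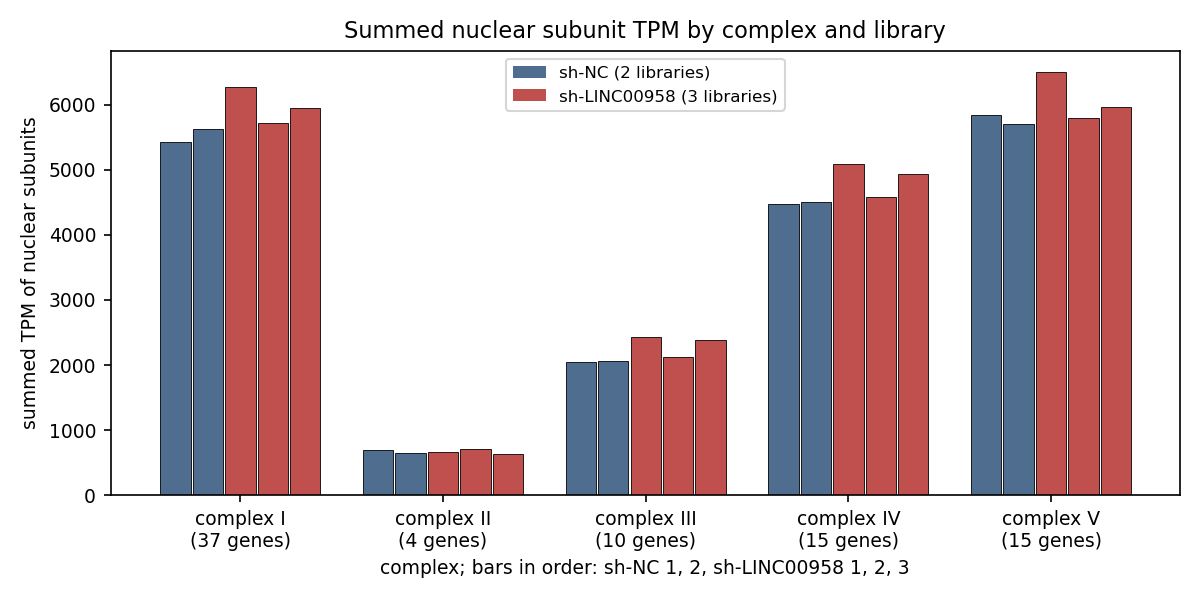
Summed TPM of the nuclear subunits of each complex, 1 bar per library, with the axis starting at 0. The hairpin bars of complexes I, III and IV all exceed both control bars, library 2 by the least; complex II is flat between 637 and 706 TPM.

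The fold change of a member moved with the GC content of its transcripts, as it did for genes at large. Spearman's rho between fold change and GC was 0.49 over the 105 members and 0.49 over the 16999 tested genes with a GC value; genes of one library set share their libraries, so this is a description. Among the 17 members in the lowest of 4 equal bins of GC over tested genes the median fold change was -0.11, against -0.29 for all genes there. Among the 20 in the highest bin it was 0.25, against 0.18. The members were not richer in GC than other genes, with a median of 47.8% against 48.9%. After the trend with GC and length was removed within each library, the medians of complexes I to V were 0.02, 0.07, 0.15, 0.16 and 0.08. In that fit limma called 3 members higher and 0 lower (16 and 10 at an unadjusted p under 0.05). That is 2.86% and 0%, beside 2.21% and 2.61% of all genes in that fit. NDUFA8 and COX15 passed there (limma adjusted p = 0.0158 and 0.0306). NDUFA4, at 0.17 without the removal (limma adjusted p = 0.169), passed there as well with 0.42 (limma adjusted p = 0.0461). NDUFV2, NDUFS8 and ATP5I did not (limma adjusted p = 0.0684, 0.101 and 0.287); their log2 fold changes there were -0.32, 0.34 and 0.14, against -0.37, 0.55 and 0.34 without the removal. Of members that had not passed, the removal took NDUFV1 to 0.21, UQCR11 to 0.13, COX6B1 to 0.16, COX7B2 to 0.53, COX11 to -0.25, COX20 to -0.23 and ATP5C1 to -0.11.

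**Figure D4:**
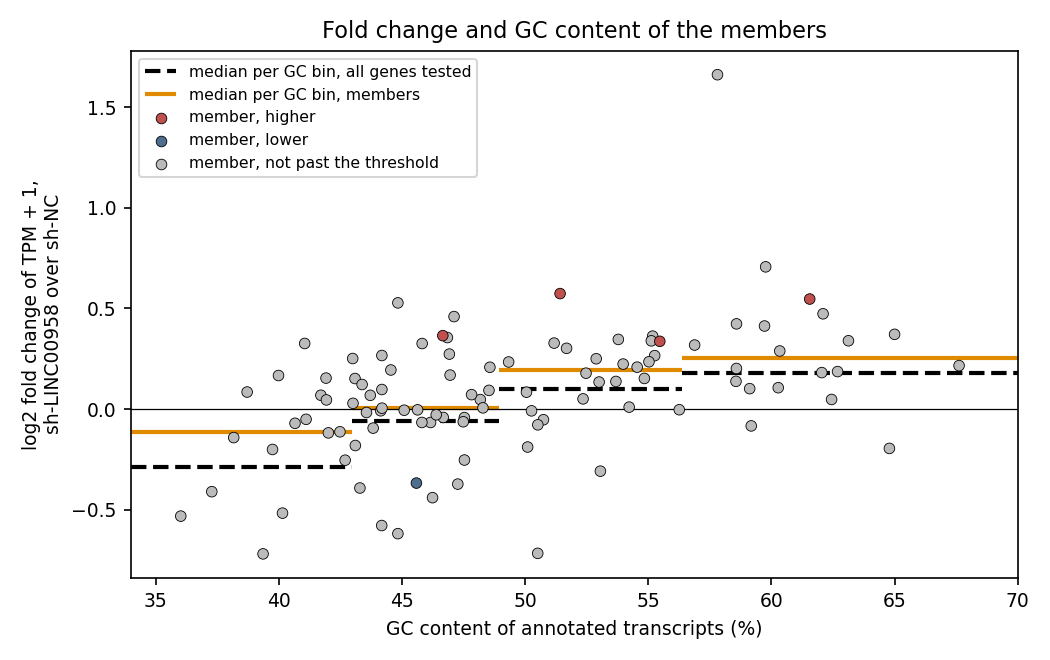
Fold change (log2 of TPM + 1, sh-LINC00958 over sh-NC) of 104 members against the GC content of their annotated transcripts, with the median per GC bin for all 105 members (solid) and for all tested genes (dashed). Both step upwards from left to right, the members from -0.11 to 0.25 and all genes from -0.29 to 0.18.

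Reads can be shared with other annotations. The 152 pseudogene rows summed to a mean of 73.9 TPM against 20390 TPM for the members, and UQCRFS1 was the only member whose pseudogenes held over 5% of the joint level. Exon bases were shared with another tested gene by 40 members, 30 of them with one on the opposite strand, and whether the counting used strand is not given in the sources used here. ATP5I shares 579 bases with MYL5 on the other strand, while NDUFA8, NDUFS8, COX15 and NDUFV2 share none with a tested gene. Of the antisense and read-through transcripts, NDUFC2-KCTD14 had the highest fold change of all members, 1.66, at 5.53, 4.08 and 5.65 TPM against 2.08 and 0.186 TPM (limma adjusted p = 0.0573), and it shares 431 exon bases with NDUFC2. NDUFV2-AS1 measured 1.62, 1.36 and 1.98 TPM against 4.57 and 2.38 TPM, below both controls like NDUFV2.

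The 7 further names under the mean of 1 TPM were left out, and the values around that limit describe it. NDUFB2-AS1 lay just outside with a mean of 0.815 TPM, and COX6B2 and NDUFA4L2 just inside with 1.01 and 1.87 TPM. The others outside were COX4I2, COX6A2, COX8C, COX7A1, ATP5L2 and a second row named SDHD.

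Other genes that serve the same complexes have names outside the rule. Of 41 rows of further assembly factors, 1 rose: UQCC3, needed for cytochrome b in complex III, at 27.4, 23.4 and 26.2 TPM against 17.7 and 17.2 TPM (log2 fold change 0.53, limma adjusted p = 0.0379, and 0.0774 with the GC and length trend removed). That is 2.44% beside 4.12% of all genes. None fell in the limma fit, beside 5.68% of all genes, with 7 higher and 6 lower at an unadjusted p under 0.05. The 3 further ATP synthase genes, USMG5, C14orf2 and ATPIF1, had log2 fold changes of 0.27, -0.09 and 0.03 and none passed in the limma fit (1 higher and 0 lower at an unadjusted p under 0.05).

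Of 12 regulators of mitochondrial genes, 1 rose and 2 fell, which is 8.33% and 16.7% beside 4.12% and 5.68% of all genes tested. ESRRA, a nuclear receptor that drives many of these genes, measured 47.6, 41.3 and 46.2 TPM against 22.5 and 20.0 TPM and rose by 1.05 (SE 0.107, limma adjusted p = 0.0103). TFAM, which packages and transcribes mitochondrial DNA, measured 19.0, 25.1 and 19.7 TPM against 40.4 and 40.7 TPM and fell by 0.91 (SE 0.138, limma adjusted p = 0.0228). GABPA, the DNA-binding subunit of GABP, measured 15.4, 22.9 and 17.3 TPM against 36.3 and 38.5 TPM and fell by 0.99 (SE 0.172, limma adjusted p = 0.0287). None of these groups overlapped, and with the GC and length trend removed ESRRA and TFAM still passed while GABPA, at -0.50, did not (limma adjusted p = 0.0716). NRF1 itself had a log2 fold change of -0.13 (limma adjusted p = 0.474). GABPA shares 413 exon bases with the member ATP5J on the other strand, and ATP5J, at 395 ± 5.78 (SD, n = 3) against 414 ± 23.9 TPM (SD, n = 2), did not pass.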

How the data were processed

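RNA sequencing levels of 5 libraries were analysed, 3 of sh-LINC00958 and 2 of sh-NC, grouped by their titles. The authors deposited 1 table of TPM for 58174 genes. The submitters' processing notes list GRCh38, HISAT2 2.0 and StringTie 1.3.3b beside Trimmomatic 0.36 and FastQC 0.11.2. For the annotation release and the use of strand, the sources used here give nothing. TPM scales each library to the same total, so depth is unknown and each value is relative to the other RNAs.

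From these values log2(TPM + 1) was fitted with limma 3.58.1 in R 4.3.3 (eBayes with a trend) over the 17049 genes with a mean of at least 1 TPM. Tests were two-sided, adjusted by Benjamini-Hochberg over all genes, at 0.05. Such fold changes understate the change of low genes. Sums and shares were tested by exact permutation of libraries (SciPy 1.17.1). GC and length came from GENCODE release 29 and promoters from RefSeq. The alternatives were other pseudocounts, filters and scalings, limma without a trend or robust, removal of GC and length trends, a replicate block, and leaving out each library.

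The members, the lists of related genes and the grouping by complex were chosen with earlier results of these data known. Named were all members that passed, in each complex the 3 with the smallest p and the 2 with the highest mean, isoforms, members at the limit of 1 TPM, and of each list those that passed or else the 2 with the smallest p. A few results that this rule takes are not reported here. Other members were named as whole classes or chosen after their values were seen.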

Additional observations from a re-analysis of the deposited data

How the results depend on the processing

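Against 5 members higher and 1 lower, limma called 1 and 0 with no filter, 8 and 3 at a mean of at least 5 TPM, 1 and 0 without the trend, and 3 and 0 with the GC and length trend removed. Of all genes, 0.587% and 0.763% were called with no filter, and 6.94% and 8.99% at a mean of at least 5 TPM. The shares were 2.18% and 3.04% without the trend, and 2.21% and 2.61% with the GC and length trend removed. Under median-ratio scaling limma called 5 members higher and 2 lower, 4.76% and 1.90%, beside 4.47% and 6.41% of all genes. Under quantile normalization it called 7 higher and 2 lower, 6.67% and 1.90%, beside 5.01% and 6.03% of all genes. With the replicate number as a block limma called 0 members higher and 0 lower, with or without removal of the GC and length trend (unadjusted p under 0.05: 16 higher and 9 lower, and 16 and 5 with the removal); the block leaves 1 residual degree of freedom, and over all genes it called 0 higher and 2 lower. The labels do not say that a number pairs samples. Deviations of same-numbered libraries correlated at 0.00 and 0.05, and those of sh-LINC00958 replicate 3 with sh-NC replicate 1 at 0.05. Deviations of 2 controls from their mean are equal and opposite, so these correlations cannot decide on pairing. Leaving out 1 hairpin library gave 0 to 16 higher and 0 to 5 lower. Counts were 0 and 0 without sh-LINC00958 replicate 1 (limma, 13 and 8 at an unadjusted p under 0.05). They were 16 and 5 without its replicate 2, and 1 and 0 without its replicate 3. Leaving out either control leaves 1 library in that group, so no count of members is given for it. NDUFA8 was called in 11 of 16 alternatives, COX15 in 8, NDUFS8 and NDUFV2 in 7 and ATP5I in 6. These 5 kept their direction. The median of complex I was 0.023 with the GC and length trend removed and 0.031 with the block as well, and that of complex IV 0.11 with both. Reversals were confined to folds that had not passed. With the GC and length trend removed, and then with the block as well, COX8A turned to -0.0067 and -0.0040, CYC1 to -0.0021 and -0.033, NDUFS3 to -0.014 and -0.016, SDHA to -0.048 and -0.0047, ATPIF1 to -0.048 and -0.016, ATP5A1 to 0.0038 and 0.0013, UQCRB to 0.22 and 0.21 and UQCRFS1 to 0.11 and 0.087. ATP5H turned to 0.030 with the block and 0.049 with both. Quantile normalization turned COX6A1 to -0.026, ATPIF1 to -0.0018, ATP5A1 to 0.026 and UQCRFS1 to 0.018, and median-ratio scaling turned UQCRFS1 to 0.0011. Leaving out 1 library moved ATP5B from -0.19 to 0.021, ATP5G3 from -0.052 to 0.11, ATP5H from -0.14 to 0.03, ATPIF1 from -0.013 to 0.071, COX10 from -0.15 to 0.042, NDUFS1 from -0.75 to 0.39, SDHA from -0.021 to 0.12 and UQCRFS1 from -0.12 to 0.11. In the same way the log2 ratio of summed TPM of complex II ranged from -0.049 to 0.035, and the differences in share, in percentage points, from -1.82 to 0.574 for ATP5G2, -3.38 to 3.02 for COX7A2 and -3.10 to 3.37 for COX7A2L. Of 1103 fold changes of named genes across alternatives, 952 kept direction and side of the threshold, 91 lost their call, 26 gained one and 34 reversed; the cause was not tested. Depth is unknown, and the number of libraries limits the precision.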

Other observations

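Among 17 genes of electron carriers and ubiquinone synthesis, 1 fell, which is 5.88% beside 5.68% of all genes tested and no result about the list. COQ10B, a ubiquinone-binding protein, measured 17.5, 17.8 and 16.2 TPM against 24.7 and 29.5 TPM and fell by 0.62 (SE 0.116, limma adjusted p = 0.0326, and 0.0831 with the GC and length trend removed). None rose in the limma fit, with 2 higher and 1 lower at an unadjusted p under 0.05. CYCS, which encodes cytochrome c and was picked after its values were seen, measured 163, 204 and 74.6 TPM against 189 and 194 TPM, with 1 hairpin library far below the other 4.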
